A study of Mus musculus with 9 samples.

Results

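The transcripts described here are those of 9 mouse genes that act at the first steps of T cell receptor (TCR) signalling: the tyrosine kinases Fyn, Lck and Zap70, the adaptors Lat, Lcp2 and Themis, the receptor-type phosphatase Ptprc (CD45), the cytoplasmic phosphatase Ptpn22 and the inhibitory kinase Csk. They were chosen by their known role in the pathway and not by their values, but with earlier results of these data known. They are 9 of the 20258 gene symbols that the array probes could be given. The 9 genes had 11 probes, as Zap70 and Themis had 2 each, and every one of the 11 was well above background on all 9 arrays. Thymocytes of C57BL/6 mice had been sorted by CD4, CD8 and TCRβ, and each sorted population was measured on 1 array.

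Brd1 conditional knockout mice, called CKO below, carried Brd1flox/flox and Tie2-Cre, and control mice carried Brd1+/+ and the same Tie2-Cre. Tie2-Cre is driven by a promoter active in endothelial and blood-forming cells, so recombination is not limited to thymocytes. From 8-week-old CKO and control mice came DP cells (double positive for CD4 and CD8), CD4SP cells and CD8SP cells (single positive for one of them), 1 array for each genotype. CD8SP cells were also taken from 14-week-old CKO and control mice carrying OT-I, which the labels type as OT-l, a transgenic TCR restricted by MHC class I. The ninth array held CD4SP cells without surface TCRβ from 8-week-old CKO mice and had no control counterpart. How many mice gave each sample is not given in the sources used here.

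In a T cell, Lck and Fyn phosphorylate the CD3 and zeta chains of an engaged receptor, and Zap70 docks there and is activated. Zap70 phosphorylates Lat, which with Lcp2 (SLP-76) gathers the enzymes that raise calcium and activate Ras. Csk adds the inhibitory phosphate to the tail of Lck and Fyn and Ptprc removes it, while Ptpn22 takes activating phosphates off Lck, Fyn and Zap70. Themis is a thymocyte protein that binds Grb2 and is needed for DP cells to pass positive selection.

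All levels are the log2 signal of a probe relative to the 75th percentile of its own array, so that 0 is the brightness of the probe at that percentile. Probes differ in brightness for reasons of sequence, so levels are compared between arrays for 1 probe and never between genes. Differences between populations and between genotypes were estimated with limma in 1 additive fit over the 9 arrays, with Benjamini-Hochberg adjustment over 20282 genes, and called below an adjusted p of 0.05. With 1 array per group, the error of that fit is the spread of the genotype difference over the 4 populations with both genotypes, not a spread between mice.

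The arrays carried T lineage RNA: Cd3e ranged from 7.93 to 8.79 and Thy1 from 7.77 to 10.23. The NK cell gene Ncr1 was well above background on 0 arrays, but other NK and NKT genes were not absent. Of a list of 6 with Ncr1, 5 were above background in control and 1 in CKO CD4SP cells. Their summed linear level was 8.17 and 0.41 there. In CD8SP and in OT-I cells 2 were above background in control and 3 in CKO. Each DP array and the TCRβ-negative array had 1. The myeloid gene Csf1r was above background on all 9, between 3.57 and 4.70. The probe of Brd1 lay between -0.98 and -0.33 in CKO arrays and between -1.37 and -0.79 in control arrays. Since its place relative to the floxed exons is not known here, it checks nothing about the deletion. DP, CD4SP, control CD8SP and TCRβ-negative cells were on slide 1, and CKO CD8SP and both OT-I samples on slide 2. The 2 CD8SP arrays therefore lay on different slides. In OT-I relative to CD8SP cells, OT-I and age cannot be told apart. Slide differs with them between the control arrays, whereas both CKO arrays of that comparison were on slide 2.

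Fyn, the Src-family kinase that works beside Lck, had the widest range of the 9 genes. Its level was 0.28 in CKO and -0.55 in control DP cells, 2.11 and 1.50 in CKO and control CD4SP cells, 1.18 and -0.20 in CKO and control CD8SP cells, 2.00 and 0.60 in CKO and control OT-I CD8SP cells, and -0.10 in TCRβ-negative CKO cells. The highest and lowest arrays, CKO CD4SP and control DP, were 2.66 apart, a 6.34-fold range that exceeded the range of 82.4% of tested genes. Both CD4SP arrays lay above both DP arrays, and in each of the 4 populations the CKO array lay above the control array. Csk, the kinase that holds Fyn and Lck inactive, followed an order much like that of Fyn, with Pearson r = 0.944 over the 9 arrays. Csk measured 2.47 in CKO and 2.15 in control DP cells, 3.17 and 2.97 in CKO and control CD4SP cells, 2.85 and 2.43 in CKO and control CD8SP cells, 3.46 and 2.95 in CKO and control OT-I CD8SP cells, and 2.38 in TCRβ-negative CKO cells. The lowest 4 arrays of Csk were the DP pair, the TCRβ-negative cells and the control CD8SP cells.

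Themis ran the other way. It stood at 4.16 in CKO and 4.39 in control DP cells, 2.62 and 2.44 in CKO and control CD4SP cells, 2.85 and 2.55 in CKO and control CD8SP cells, 3.00 and 2.44 in CKO and control OT-I CD8SP cells, and 4.13 in TCRβ-negative CKO cells. The DP and TCRβ-negative arrays lay within 0.3 of each other and more than 1 above all 6 single-positive arrays with TCRβ. The second Themis probe, at 1.81 and 1.88 in CKO and control DP cells, 0.10 and 0.19 in CKO and control CD4SP cells and 1.52 in TCRβ-negative cells, gave the same split, with r = 0.979 between the 2 probes.

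The promoter windows of Fyn, Csk and Themis are shown because these are the genes that differed most between DP and CD4SP cells or, for Csk, tracked the one that did. They are the RefSeq sequences of build GRCm38.p6 from 250 bases before to 50 bases after the annotated start, read along the gene, at chr10:39369549-39369848 on the plus strand for Fyn, chr9:57653582-57653881 on the minus strand for Csk and chr10:28668110-28668409 on the plus strand for Themis. Csk and Themis have 2 annotated starts each and the upstream one is shown. Capitals mark every match, on either strand, to GGAAG (an ETS core), TGTGGT (a RUNX core) or CAGNTG (an E-box), 3 motifs of factors active in thymocytes, and no match overlaps another.
Fyn: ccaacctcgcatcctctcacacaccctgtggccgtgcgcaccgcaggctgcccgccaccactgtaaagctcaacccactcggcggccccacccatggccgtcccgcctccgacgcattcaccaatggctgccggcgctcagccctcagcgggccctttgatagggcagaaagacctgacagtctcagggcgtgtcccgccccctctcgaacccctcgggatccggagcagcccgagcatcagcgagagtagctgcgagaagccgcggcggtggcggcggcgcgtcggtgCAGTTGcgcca
Csk: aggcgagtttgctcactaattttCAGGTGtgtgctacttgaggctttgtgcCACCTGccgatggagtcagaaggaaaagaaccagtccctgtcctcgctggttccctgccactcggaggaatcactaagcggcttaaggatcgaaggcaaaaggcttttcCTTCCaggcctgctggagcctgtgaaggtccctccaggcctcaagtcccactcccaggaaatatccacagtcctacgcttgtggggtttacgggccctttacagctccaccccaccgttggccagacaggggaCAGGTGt
Themis: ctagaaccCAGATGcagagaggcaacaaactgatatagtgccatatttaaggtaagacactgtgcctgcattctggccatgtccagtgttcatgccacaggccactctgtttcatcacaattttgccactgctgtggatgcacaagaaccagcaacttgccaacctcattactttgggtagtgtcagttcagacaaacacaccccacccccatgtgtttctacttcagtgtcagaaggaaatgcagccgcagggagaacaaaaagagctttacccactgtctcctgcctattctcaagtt
Fyn and Themis held 1 E-box each and Csk held 3, together with 1 ETS core, and none of the 3 windows held a RUNX match. An ETS match was present in 71.4% of the 32851 promoter windows in the table, an E-box in 51.4% and a RUNX match in 16.8%, so the matches are common and are given as a description of these windows only.

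Lck, which phosphorylates the CD3 chains and Zap70, and Zap70 itself varied least. Lck was at 10.36 in CKO and 9.96 in control DP cells, 9.41 and 9.58 in CKO and control CD4SP cells, 9.59 and 9.67 in CKO and control CD8SP cells, 9.47 and 9.89 in CKO and control OT-I CD8SP cells, and 10.05 in TCRβ-negative CKO cells. Its whole range of 0.96 was wider than that of 25.5% of tested genes. Zap70 was at 7.62 in CKO and 7.18 in control DP cells, 7.60 and 7.61 in CKO and control CD4SP cells, 7.27 and 7.13 in CKO and control CD8SP cells, 7.84 and 7.91 in CKO and control OT-I CD8SP cells, and 7.25 in TCRβ-negative CKO cells. That range, 0.78, was wider than that of 14.5% of tested genes, and the highest 2 arrays were the OT-I pair. The second Zap70 probe placed the same pair highest, at 6.25 in CKO and 6.39 in control OT-I cells, and correlated with the first with r = 0.987.

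Lat, the membrane adaptor phosphorylated by Zap70, was highest in CKO DP cells. It measured 8.52 in CKO and 7.48 in control DP cells, 7.45 and 7.65 in CKO and control CD4SP cells, 7.69 and 7.32 in CKO and control CD8SP cells, 7.31 and 7.06 in CKO and control OT-I CD8SP cells, and 8.25 in TCRβ-negative CKO cells. The other 7 arrays stayed between 7.06 and 7.69, whereas CKO DP and TCRβ-negative cells stood 0.56 or more above them. Lcp2, the cytosolic adaptor that joins Lat, was at 1.05 in CKO and 0.85 in control DP cells, 1.82 and 1.52 in CKO and control CD4SP cells, 1.05 and 0.09 in CKO and control CD8SP cells, 1.04 and 0.80 in CKO and control OT-I CD8SP cells, and 1.21 in TCRβ-negative CKO cells. Both CD4SP arrays led the order of Lcp2, and the control CD8SP array lay apart at the bottom.

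Ptprc, which removes the phosphate that Csk adds, was at 3.92 in CKO and 3.68 in control DP cells, 4.39 and 3.83 in CKO and control CD4SP cells, 3.84 and 2.96 in CKO and control CD8SP cells, 4.15 and 2.89 in CKO and control OT-I CD8SP cells, and 3.83 in TCRβ-negative CKO cells. Its lowest 2 arrays were the control CD8SP and control OT-I cells. Ptpn22 was at 3.99 in CKO and 3.31 in control DP cells, 4.58 and 3.74 in CKO and control CD4SP cells, 4.96 and 3.66 in CKO and control CD8SP cells, 4.83 and 3.68 in CKO and control OT-I CD8SP cells, and 4.09 in TCRβ-negative CKO cells. All 5 CKO arrays lay above all 4 control arrays for Ptpn22. The same held for Ptprc, by only 0.004 between the TCRβ-negative array and the control CD4SP array. With the 4 paired CKO arrays alone, 1.76% of tested genes had such a split, and the share with all 5 was not computed. The median range over the 9 genes was 1.50, against 1.38 over all tested genes.

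**Figure D1:**
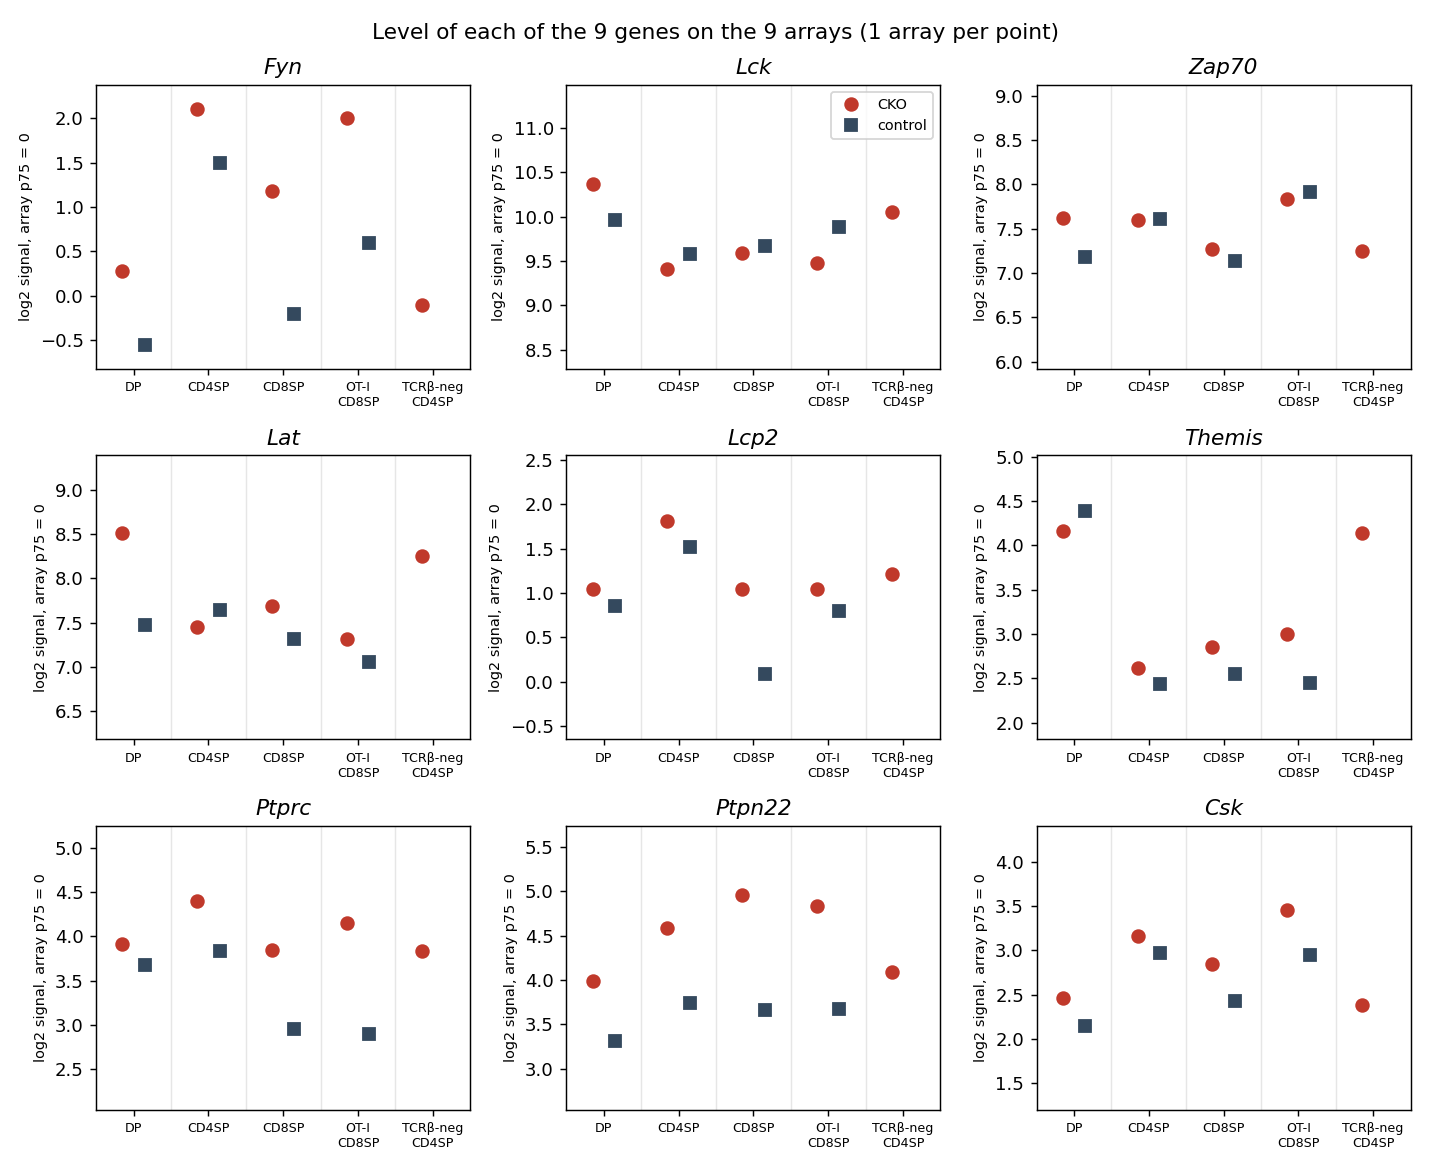
Level of each of the 9 genes on every array, as log2 signal relative to the array's 75th percentile, with populations along the x axis, CKO arrays as circles and control arrays as squares (1 array per point; every panel spans the same height in log2). Fyn and Csk are highest in CD4SP and CKO OT-I cells, Themis is highest in DP and TCRβ-negative cells, and Ptpn22 is higher in the CKO array of every pair.

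In CD4SP cells relative to DP cells, Fyn rose and Themis fell in the fit, and the other 7 genes did not pass the test. CD4SP cells are one mature product of DP cells, so the comparison covers the step of positive selection. Fyn was 1.94 higher (SE 0.32, 95% interval 1.17 to 2.72), which is 3.84-fold, with a limma adjusted p of 0.0372. The difference was 1.83 between the CKO arrays and 2.05 between the control arrays. Themis fell by 1.74 (SE 0.30, 95% interval -2.47 to -1.02), which is 3.35-fold, with a limma adjusted p of 0.0414. It was -1.54 between the CKO arrays and -1.95 between the control arrays, and the fitted difference was -1.70 on the second probe. In bulk RNA, a lower share of cells that express a gene and less RNA per cell cannot be told apart. With 2 of 9 genes called, the background is that 3.11% of the 20282 tested genes were called, 2.18% higher and 0.927% lower.

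Both calls were near the threshold. With the scale set by the probes above background on all arrays, or without the CD8SP pair (which gives the same values as slide as a block), the adjusted p of Fyn was 0.0689 and 0.0766, and that of Themis was 0.0899 and 0.0977; Themis also had 0.0748 after quantile normalization and 0.0558 with no filter on dim genes. The size of the Fyn difference stayed between 1.52 and 2.02 under all alternatives run, and that of Themis between -1.75 and -1.57. Among the genes not called, Csk was 0.76 higher (95% interval 0.14 to 1.39, adjusted p 0.202), Lcp2 0.72 higher (adjusted p 0.300) and Lck 0.67 lower (adjusted p 0.321). The markers of mature thymocytes moved with these values: their summed linear level over 5 genes was 508 in CKO and 525 in control CD4SP cells, against 70.7 in CKO and 42.2 in control DP cells. How far the share of mature cells accounts for the 2 calls was not tested.

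In CD8SP cells relative to DP cells, 0 of the 9 genes were called by limma, against 3.46% of all tested genes, 2.42% higher and 1.04% lower. At an unadjusted p below 0.05 there was 1, Themis, as against 20.9% of all genes. Themis was 1.57 lower in CD8SP cells (SE 0.30, 95% interval -2.30 to -0.85, adjusted p 0.0519), with -1.31 between the CKO arrays and -1.84 between the control arrays. Its adjusted p ranged from 0.0214 to 0.275 over the alternatives, being 0.0214 with normexp background correction, 0.0373 with the mean of its probes, 0.0256 when only genes detected on all 9 arrays were tested and 0.275 with slide as a block. Fyn was 0.63 higher (SE 0.32, 95% interval -0.15 to 1.41), with 0.90 between the CKO arrays and 0.35 between the control arrays. Ptpn22 was 0.66 higher and Lck 0.54 lower, with adjusted p of 0.261 and 0.375. Lck passed the test after quantile normalization, at -1.31 and an adjusted p of 0.0490.

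Between the single-positive populations, CD8SP relative to CD4SP, 0 of 9 genes were called by limma (0.39% of all tested genes) and 2 had an unadjusted p below 0.05 (13.3% of all genes). These were Fyn, 1.31 lower in CD8SP cells (SE 0.32, adjusted p 0.244), and Lcp2, 2.14-fold lower (SE 0.31 on the log2 scale, adjusted p 0.294). Both CD8SP arrays were below both CD4SP arrays for each of these genes, as they were for Zap70 and Csk. The share of all genes with such a split was not computed, and the CKO CD8SP array was on another slide than the rest. The Fyn difference was -0.93 between the CKO arrays and -1.70 between the control arrays, and the Lcp2 difference -0.76 and -1.43. Ptprc was 0.71 lower in CD8SP cells with an adjusted p of 0.411, and Themis, Ptpn22, Lck and Lat differed by 0.17 or less.

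In OT-I CD8SP relative to CD8SP cells, 0 of 9 genes were called by limma (0.237% of all tested genes, 0.0394% higher and 0.197% lower), and 2, Fyn and Zap70, had an unadjusted p below 0.05 (6.93% of all genes). Fyn was 0.81 higher in OT-I cells (adjusted p 0.695), by 0.82 between the CKO arrays and 0.80 between the control arrays. Zap70 was 0.67 higher (adjusted p 0.714) and Csk 0.57 higher (adjusted p 0.773). The other 6 genes lay between -0.32 and 0.35. Markers of other cells and states also differed. The summed linear level of 2 gamma delta T cell genes was 10.1 in CKO and 36.6 in control OT-I cells, against 2.87 in CKO and 3.62 in control CD8SP cells. For 10 proliferation genes it was 66.0 in CKO and 637 in control OT-I cells, against 221 in CKO and 567 in control CD8SP cells. The part of these markers in the OT-I differences was not tested.

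**Figure D2:**
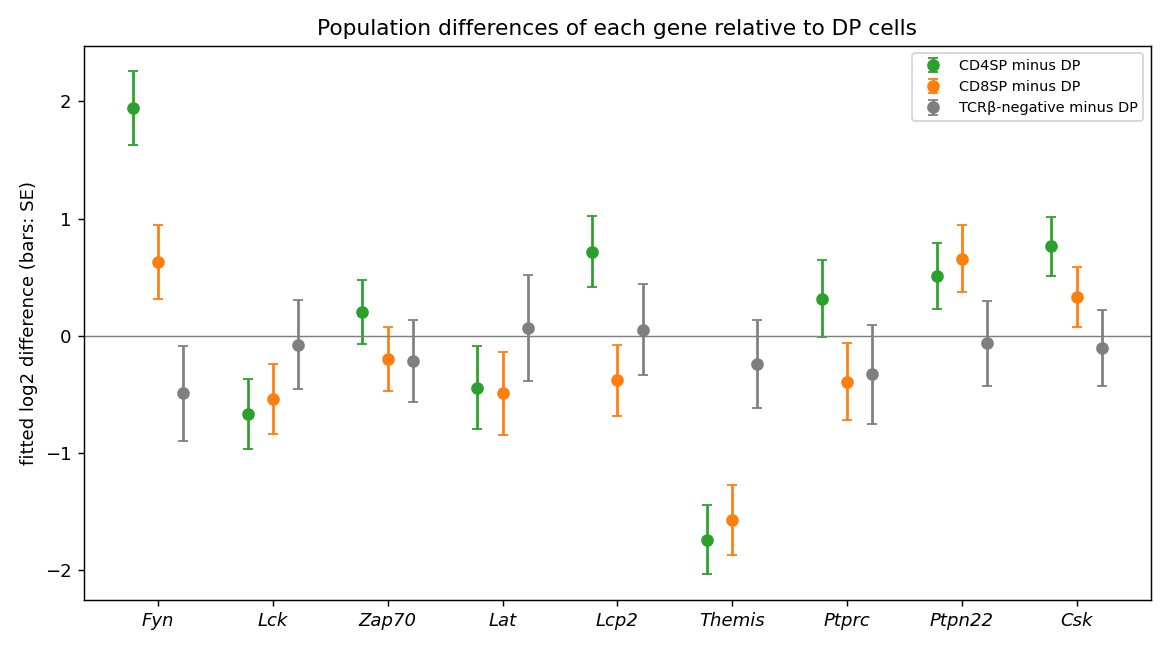
Fitted log2 differences of the 9 genes for CD4SP minus DP, CD8SP minus DP and TCRβ-negative minus DP cells, with bars of 1 SE from the limma fit over 9 arrays. Fyn at 1.94 and Themis at -1.74 stand out in CD4SP cells, Themis at -1.57 in CD8SP cells, and all TCRβ-negative values lie within 0.5 of 0.

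In CKO relative to control cells, 0 of 9 genes passed the test, against 0.281% of the 20282 tested genes, 0.0394% higher and 0.242% lower. At an unadjusted p below 0.05 there were 3 of the 9, namely Fyn, Ptpn22 and Ptprc, as against 10.9% of all genes, and each had the higher level in the CKO array of all 4 pairs. Across the 9 genes the median fitted difference was 0.37, against -0.04 over all tested genes, and 8 of 9 were above 0, against 45.3% of all tested genes.

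The level of Fyn was higher in the CKO array by 0.83 in DP, 0.61 in CD4SP, 1.38 in CD8SP and 1.40 in OT-I cells. The fitted difference was 1.06 (SE 0.22, 95% interval 0.51 to 1.61, adjusted p 0.208). For Ptpn22 the 4 pairs gave 0.68, 0.85, 1.30 and 1.15 in the same order, and the fit 0.99 (SE 0.20, 95% interval 0.50 to 1.49, adjusted p 0.187). Ptpn22 and Fyn thus differed in the same direction in every pair, with both intervals above 0 before adjustment over all genes. Ptprc gave 0.24, 0.57, 0.89 and 1.26 over the pairs, and 0.74 in the fit (SE 0.23, 95% interval 0.17 to 1.31, adjusted p 0.359). The DP pair had the lowest Ptprc difference and the OT-I pair the highest.

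Between the pairs that lie within a slide, slide cannot be told apart from population, OT-I and age. Within slide 1, which held the DP and CD4SP pairs, the genotype difference was 0.72 for Fyn, 0.76 for Ptpn22 and 0.40 for Ptprc. In the OT-I pair on slide 2 it was 1.40, 1.15 and 1.26. With slide as a block the values were 0.95, 0.89 and 0.69, with adjusted p of 0.700, 0.686 and 0.923. Markers of other states moved with genotype in the CD8SP and OT-I pairs. The summed linear level of 5 mature thymocyte genes was 680 in CKO and 264 in control CD8SP cells, and 633 in CKO and 237 in control OT-I cells, but 508 in CKO and 525 in control CD4SP cells and 70.7 in CKO and 42.2 in control DP cells. That of 10 proliferation genes was 221 in CKO and 567 in control CD8SP cells, and 66.0 in CKO and 637 in control OT-I cells. That of 7 DP thymocyte genes, which include the sorting markers, was 523 in CKO and 901 in control CD8SP cells. It was 141 in CKO and 596 in control OT-I cells, but 198 in CKO and 160 in control CD4SP cells. In DP cells it was 1921 in CKO and 1791 in control. For Ptprc, which all blood-forming cells express, the sum of 8 myeloid genes was 152 in CKO and 94.8 in control CD8SP cells, 92.0 in CKO and 67.5 in control OT-I cells, 73.3 in CKO and 100.2 in control CD4SP cells, and 50.3 in CKO and 66.9 in control DP cells. The part of these markers in the differences was not tested.

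Csk and Lcp2 were also higher in the CKO array of every pair, by smaller amounts. Csk was 0.32 higher in DP, 0.19 in CD4SP, 0.41 in CD8SP and 0.51 in OT-I cells, and 0.36 in the fit (95% interval -0.08 to 0.80, adjusted p 0.517). Lcp2 was 0.20, 0.30, 0.96 and 0.24 higher, and 0.42 in the fit (95% interval -0.11 to 0.95, adjusted p 0.522), so the CD8SP pair, which crosses the slides, carried most of it. Together with Fyn, Ptpn22 and Ptprc this makes 5 of 9 genes higher in the CKO in all 4 pairs, beside 11.5% of the 15102 genes above background on all 8 arrays. The count was 4 with the scale set by the probes above background on all arrays, since Lcp2 was then -0.02 in the DP pair, and 6 with normexp or with quantile normalization. The share of all genes was not computed under these alternatives, so the 11.5% stands beside the count of 5 only. The 4 paired CKO arrays lay wholly above the 4 control arrays for 2 genes, beside 1.76% of tested genes, and wholly below for none (1.55%): Ptpn22 at 3.99 to 4.96 against 3.31 to 3.74, and Ptprc at 3.84 to 4.39 against 2.89 to 3.83. For Ptprc the groups overlapped after quantile normalization and with the other scale, and for Ptpn22 they did not overlap under any background correction or scaling run.

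Lat, Zap70, Themis and Lck had pairs in both directions. Lat differed by 1.04 in DP, -0.20 in CD4SP, 0.37 in CD8SP and 0.26 in OT-I cells. Zap70 was 0.45 higher in the DP pair and -0.02, 0.13 and -0.07 in the CD4SP, CD8SP and OT-I pairs. Themis was -0.23 in the DP pair and 0.18, 0.30 and 0.56 in the CD4SP, CD8SP and OT-I pairs. Lck was 0.40 in the DP pair and -0.17, -0.08 and -0.41 in the CD4SP, CD8SP and OT-I pairs. In the fit these 4 genes had differences of 0.37, 0.12, 0.20 and -0.07. Each interval spans 0 and lies within 2-fold in either direction, that of Lat only narrowly, from -0.25 to 0.99. These intervals assume a genotype difference common to the populations and hold no spread between mice. They therefore do not exclude a 2-fold change in a single population, and the Lat difference in the DP pair was past 2-fold.

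The whole distribution of each pair was not centred on 0, which bears on the small differences. The median gene differed by 0.17 in DP, -0.04 in CD4SP, -0.15 in CD8SP and -0.08 in OT-I cells, and with the scale set by the probes above background on all arrays it was -0.05, -0.06, -0.01 and 0.20. The median of the 9 genes was 0.40, 0.19, 0.41 and 0.51. Relative to the median gene of the pair, the same 5 genes and Zap70 were higher in all 4 pairs, Zap70 only narrowly. Zap70 was at -0.02 against -0.04 in CD4SP and at -0.07 against -0.08 in OT-I cells. The share of all genes above the median gene in all 4 pairs was not computed. Past a 2-fold difference, the DP pair had 1 gene higher (Lat; 3.05% of genes above background on both arrays), the CD4SP pair 0 (2.6%), the CD8SP pair 2 (Fyn and Ptpn22; 5.7%) and the OT-I pair 3 (Fyn, Ptpn22 and Ptprc; 7.55%). None of the 9 genes was more than 2-fold lower in a CKO array, where 4.04%, 3.7%, 7.91% and 12.7% of genes were lower in the DP, CD4SP, CD8SP and OT-I pairs.

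**Figure D3:**
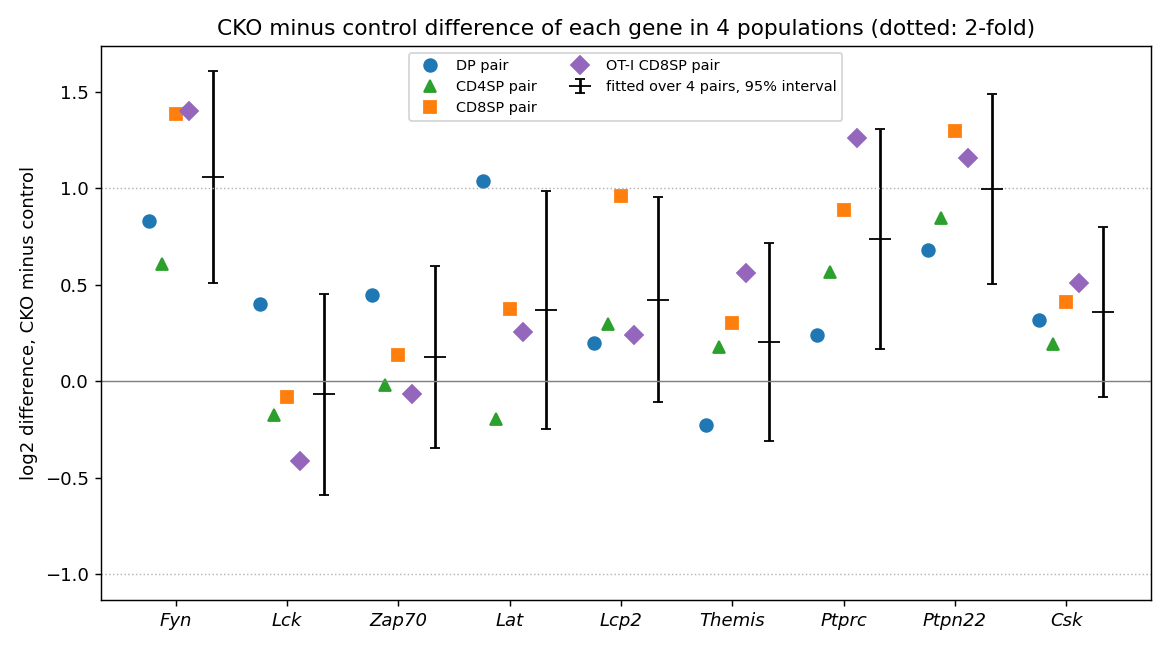
CKO minus control log2 difference of each of the 9 genes in the 4 populations (1 CKO and 1 control array per point), with the fitted difference and its 95% interval as a black bar; dotted lines mark 2-fold. The points of Fyn, Ptprc, Ptpn22, Csk and Lcp2 all lie above 0, whereas those of Lck, Zap70, Lat and Themis lie on both sides.

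TCRβ-negative CD4SP cells, measured from the CKO only, had levels of the 9 genes close to those of DP cells. Between that array and the CKO DP array, all 9 differences were below 0.5 in size, with a median of 0.16. The median was 0.20 over the 15071 genes, with or without a symbol, above background on all 9 arrays. The 9 differences were -0.38 for Fyn, -0.31 for Lck, -0.38 for Zap70, -0.27 for Lat, 0.16 for Lcp2, -0.02 for Themis, -0.08 for Ptprc, 0.09 for Ptpn22 and -0.08 for Csk. Against the CKO CD4SP array, 2 of the 9 were within 0.5, with a median size of 0.65, against 0.39 over the same 15071 genes. Fyn was 2.21 lower in the TCRβ-negative cells, Csk 0.78 lower, Lcp2 0.60 lower and Ptprc 0.56 lower, while Themis was 1.52 higher, Lat 0.80 higher and Lck 0.65 higher.

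The fit, which gives the TCRβ-negative array the genotype effect of the other populations, called 0 of the 9 genes against DP cells (limma; 0% of all tested genes, and 1.65% at an unadjusted p below 0.05, of which 0 of the 9). Against CD4SP cells it also called 0 of the 9 (1.41% of all tested genes) and 3, Fyn, Themis and Csk, had an unadjusted p below 0.05 (16.7% of all genes). Fyn was 2.43 lower than in CD4SP cells (SE 0.40, adjusted p 0.0598), and over the alternatives the difference ran from -2.65 to -1.95 with an adjusted p from 0.0178 to 0.126. It passed with normexp (0.0178), the mean of probes (0.0486) and genes detected on all 9 arrays (0.0229), and was at its highest p with slide as a block or without the CD8SP pair. Themis was 1.50 higher (SE 0.38, adjusted p 0.141) and Csk 0.86 lower (adjusted p 0.266). The DP-stage gene Rag1, which makes the recombinase, was 8.07 in TCRβ-negative cells, 8.09 in CKO DP cells and 2.88 in CKO CD4SP cells. Cd8a, at -0.32, 4.71 and -2.11 on the same arrays, was not at the DP level. The mature thymocyte sum was 58.1 in TCRβ-negative cells, against 70.7 in CKO DP cells and 508 in CKO CD4SP cells, and its part in the differences was not tested.

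**Figure D4:**
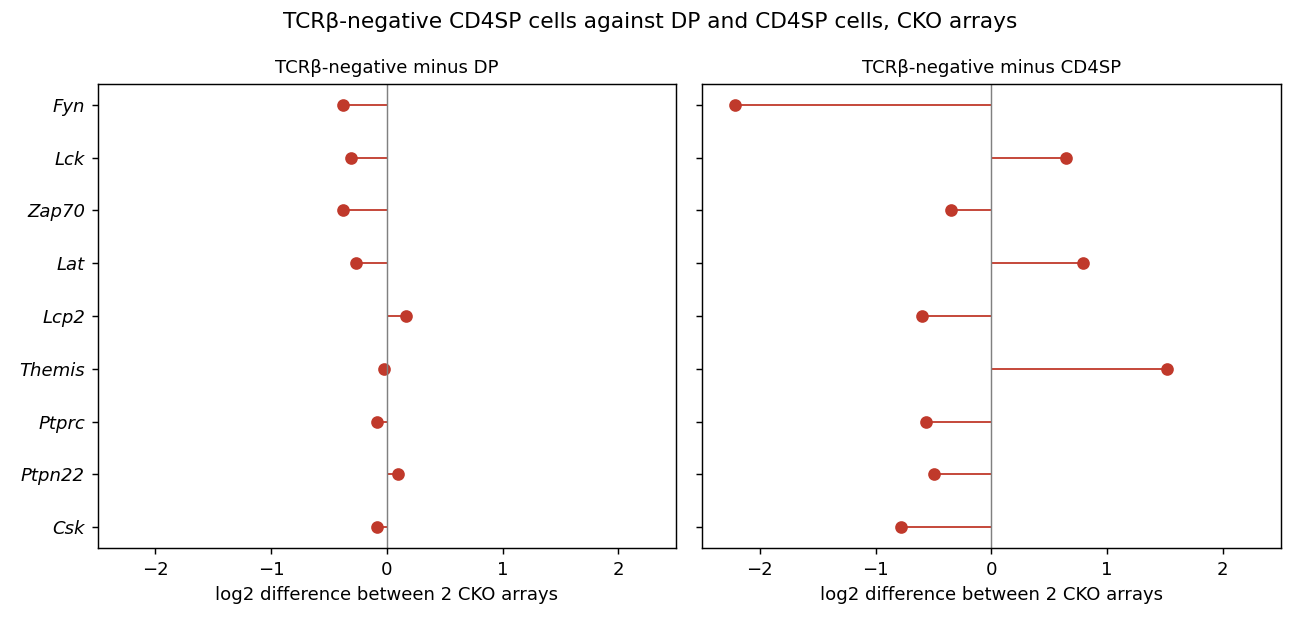
Log2 differences of the 9 genes between the TCRβ-negative CKO array and the CKO DP array (left) or the CKO CD4SP array (right), 1 array each, with no error available. On the left all points lie within 0.5 of 0; on the right Fyn is at -2.21 and Themis at 1.52.

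The rest of the pathway was followed in 80 further genes of the receptor, co-receptors, other kinases, adaptors, phosphatases, ubiquitin ligases and downstream effectors, of which 78 were tested. In CD4SP relative to DP cells 9 of the 78 were called, against 3.11% of all tested genes (2.18% higher and 0.927% lower). Of these, 3 rose: Ubash3b, a phosphatase that restrains Zap70, by 3.53 (adjusted p 0.0125), the adhesion receptor Cd2 by 2.52 (adjusted p 0.0202) and Pik3cd, a catalytic subunit of phosphoinositide 3-kinase, by 1.86 (adjusted p 0.0318). Ubash3b was at 2.34 in CKO and 2.32 in control CD4SP cells, against -0.85 in CKO and -1.56 in control DP cells. The 6 that fell were the sorting markers Cd8a (-6.75) and Cd8b1 (-5.39), the tyrosine kinase Tec (-2.89), the transcription factor Nfatc3 (-1.92), the ubiquitin ligase Cbl (-1.74) and the adaptor Sla2 (-1.56). Cd8a and Cd8b1 follow from the sort.

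In CD8SP relative to DP cells 7 of the 78 were called, against 3.46% of all tested genes (2.42% higher and 1.04% lower). Ubash3b was 2.74 higher and Pik3cd 2.00 higher, and Cd4 (-2.96, sorted on), Tec (-1.90), Cbl (-1.64) and the TCR-associated adaptor Trat1 (-1.51) were lower. The seventh, Pag1, a membrane adaptor that recruits Csk, was above background on both DP arrays and neither CD8SP array, so it was at least 1.41-fold lower, with an adjusted p of 0.0275. Between CD8SP and CD4SP cells only the sorting markers Cd8a, Cd8b1 and Cd4 were called, against 0.39% of all tested genes. Against CD4SP cells, TCRβ-negative cells had lower Cd2 (-3.34, adjusted p 0.0299) and Ubash3b (-3.23, adjusted p 0.0324), where 1.41% of all tested genes were called. For TCRβ-negative against DP cells and OT-I against CD8SP cells limma called 0 of the 78, with 2 and 16 at an unadjusted p below 0.05. Of all tested genes, 0% and 0.237% were called and 1.65% and 6.93% had such an unadjusted p. The largest values that were measured on both sides were Cd8a at -5.18 and Cd8b1 at -3.09 in the first, and Ptcra, the pre-TCR alpha chain, at -2.53 in the second.

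For genotype, limma called 0 of the 78 genes, against 0.281% of all tested genes, and 18 had an unadjusted p below 0.05, against 10.9%. The median of the 78 was 0.24 with 55 above 0, against -0.04 and 45.3% over all tested genes. The 23 tested effectors downstream of Lat and Lcp2 had a median of 0.32 with 19 above 0, the 7 co-receptors and costimulatory receptors -0.03 with 2 above 0, and the 12 other phosphatases and ubiquitin ligases 0.07 with 8 above 0. The largest differences were Ptcra at -2.08 (adjusted p 0.438), the MAP kinase phosphatase Dusp2 at 1.37 (adjusted p 0.130), the adaptor Lax1 at 1.16 (adjusted p 0.287) and Tec at 1.02 (adjusted p 0.208). Dusp2 was higher in the CKO in each pair, at 7.51 against 6.16 in DP, 8.24 against 7.30 in CD4SP, 8.11 against 6.22 in CD8SP and 7.47 against 6.17 in OT-I cells (CKO against control in each). Ptcra differed mostly in the CD8SP and OT-I pairs, where it was at 2.11 in CKO and 4.36 in control CD8SP cells and -1.85 in CKO and 3.26 in control OT-I cells.

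Patterns like those of the 9 genes were sought among 9808 genes with a symbol and above background on all 9 arrays. The most similar were found by Pearson r over the 9 arrays, which are few and share the population structure, so r is only a description. Fyn was most like Dennd1c (r = 0.981) and Nt5dc1 (0.979), Csk like Scml4 (0.981) and Snx4 (0.980), and Themis like Hs6st1 (0.993) and Mllt10 (0.987). Lck was most like Pef1 (0.985) and Wwp2 (0.975), Zap70 like Klhl36 (0.951) and Coro7 (0.936), and Lat like 1700096K18Rik (0.976) and Cracdl (0.942). Lcp2 was most like Rab10 (0.969) and Arhgap25 (0.967), Ptprc like Bnip3l (0.971) and Letm2 (0.957), and Ptpn22 like Wipf1 (0.966) and Cmah (0.961). Within the 9 genes the highest r was that of Fyn and Csk, followed by Lcp2 and Ptprc at 0.795, and the lowest that of Lck and Fyn at -0.722.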

How the data were processed

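RNA of 9 sorted thymocyte samples was measured on 9 one-colour Agilent arrays, 1 per group. Per the file headers, the deposited processed signal is an intensity, background-subtracted by Agilent Feature Extraction 10.7.1.1 and not scaled between arrays. The authors' deposited value table of the series held that intensity divided by the array's 75th percentile. The labels' protocol names biotinylated cRNA, while the scanner files record a Cy3 label. Repeated spots were averaged per probe, 144 of 55681 probes with outlier flags on an array were dropped, log2 was taken and the array's 75th percentile subtracted. No spot was saturated, the share of probes flagged well above background was 39.0% to 45.9%, and the number of arrays limits the precision. Gene symbols came from RefSeq accessions, and a gene was represented by its brightest probe. R 4.3.3 was used, with data.table at version 1.17.8 for reading. limma 3.58.1 fitted population and genotype additively, with 3 residual and 2.91 prior degrees of freedom, two-sided, on 20282 genes well above background on at least 2 arrays. Scripts were tested on simulated data. The 9 genes and the lists were chosen with earlier results of these data known. Named genes were the 9, list genes past the threshold or otherwise the 4 largest differences, and the 2 most correlated genes per gene. Alternatives changed the scaling, background correction (normexp, offset 50, on median signals, added after seeing the data), detection filter, probe rule, slide block and the pairs included.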

Additional observations from a re-analysis of the deposited data

Results flagged for a closer look

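For 4 of the 9 genes the CKO and control arrays differed in opposite directions between populations. The highest pair exceeded the lowest by 1.24 for Lat (DP against CD4SP), by 0.81 for Lck (DP against OT-I), by 0.79 for Themis (OT-I against DP) and by 0.52 for Zap70 (DP against OT-I), on the log2 scale. Each pair is 1 array against 1, so the difference between populations was not tested.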

How the results depend on the processing

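No paired analysis was possible because each group has 1 array and the labels give no replicate numbers to block on. The additive fit itself sets CKO against control within each of 4 populations. Of the 684 values fitted for the 9 genes under alternatives, 647 kept their direction and their side of the threshold, 8 lost and 7 gained a call and 22 changed sign, the largest of them Lcp2 in OT-I against CD8SP cells (0.35). For CKO against control, Lck (-0.07) was 0.031 with normexp, 0.10 with quantile normalization, 0.11 on slide 1 alone and -0.222 to 0.049 when a pair was left out (positive without the OT-I pair); Themis (0.20) was -0.025 on slide 1 alone and Zap70 (0.12) -0.068 in the slide 2 pair. For CD8SP against CD4SP, scaling on probes detected on all arrays (detected-probe scaling) gave Lck -0.086, Ptpn22 -0.068 and Themis -0.050, quantile normalization gave Lck -0.27 and Ptpn22 -0.056, and the slide block Ptpn22 -0.051. For OT-I against CD8SP, Lck was -0.011 with normexp, Lcp2 -0.0055 with the slide block, and Themis -0.019 with detected-probe scaling, -0.018 with quantile normalization and -0.041 with the slide block. For TCRβ-negative against DP, Lat (0.07) was -0.083 with detected-probe scaling, -0.19 with quantile normalization and -0.027 to 0.068 when a pair was left out (negative without the CD4SP pair), and Lcp2 was -0.10 and -0.0039 with the first and second of these.

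The number of the 9 genes called moved as follows. In CD4SP against DP, 2 became 0 with detected-probe scaling and with the slide block, and 1 with quantile normalization or no filter, with 0 to 2 when a pair was left out. In CD8SP against DP, 0 became 1 with normexp, quantile normalization, the mean of probes or detection on all 9 arrays. In TCRβ-negative against CD4SP, 0 became 1 with normexp, the mean of probes or detection on all 9 arrays. Genes past 2-fold went to 1 in the CD4SP pair with normexp, to 4 in the CD8SP pair with detected-probe scaling, and to 0 in the DP pair with detected-probe scaling or quantile normalization. The share of all genes past 2-fold was computed only for the scaling of the main results, so these counts have no background beside them.

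Among all genes, the number called for genotype, 57, was 32 with detected-probe scaling, 29 with quantile normalization, 96 with no filter, 20 with detection on all 9 arrays, 0 with the slide block and 132 on slide 1 alone, and 0 to 24 when a pair was left out. For CD4SP against DP, 630 became 959 with normexp and 285 with the slide block (285 to 1176 without a pair). For CD8SP against DP, 702 became 1552 with normexp and 0 with the slide block. For CD8SP against CD4SP, 79 became 15 with detected-probe scaling, 122 with no filter, 24 with detection on all 9 arrays and 0 with the slide block (0 to 145 without a pair). For OT-I against CD8SP, 48 became 29 with detected-probe scaling, 7 with detection on all 9 arrays and 17 with the slide block (20 to 27 without a pair). For TCRβ-negative against CD4SP, 285 became 91 with detected-probe scaling, 578 with normexp, 0 with quantile normalization, 442 with no filter and 0 with the slide block (0 to 580 without a pair), and against DP 0 became 18 with no filter and 1 with detection on all 9 arrays. The cause was not tested, except that the filters change the number of genes tested and leaving out a pair reduces the arrays. No error between mice is available for any value, since each group is a single array.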

Other observations

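Some other genes of the pathway had larger differences in a single pair of arrays than the 9 genes. Past 2-fold, 3 of 77 other genes were higher and 0 lower in CKO than in control DP cells, 0 of 74 higher and 2 lower in CD4SP cells, 9 of 75 higher and 1 lower in CD8SP cells, and 11 of 74 higher and 4 lower in OT-I cells. Over all genes above background on both arrays, 3.05% were higher and 4.04% lower in DP cells, and 2.6% and 3.7% in CD4SP cells. The shares were 5.7% higher and 7.91% lower in CD8SP cells, and 7.55% and 12.7% in OT-I cells. Lime1, a Lck-interacting transmembrane adaptor, was at 5.14 in CKO and 3.55 in control DP cells. Dgka, the kinase that removes diacylglycerol, was at 6.32 in CKO and 4.79 in control CD8SP cells. Syk, the kinase related to Zap70, was at -1.72 in CKO and 1.34 in control OT-I cells. The adaptor Nck2 was at 2.54 in CKO and 4.32 in control OT-I cells, the pair in which the proliferation sum also differed, at 66.0 in CKO and 637 in control cells. These are single pairs with no replicate, and the part of proliferation in them was not tested.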
